A study of Zea mays with 9 samples.

Results

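The 7 maize genes described here belong to the CLAVATA-WUSCHEL pathway, which sets the size of the shoot meristem, and were chosen by gene identifier out of 39305 identifiers measured in young tassels. They were the receptor genes td1 (GRMZM2G300133), fea2 (GRMZM2G104925) and fea3 (GRMZM2G166524), the G protein gene ct2 (GRMZM2G064732), the bZIP transcription factor gene fea4 (GRMZM2G133331) and the homeobox genes wus1 (GRMZM2G047448) and wus2 (GRMZM2G028622). The rule names the genes and uses no measured value, although it was written with earlier results of these data known, and all 7 had enough reads to be tested in each comparison. RNA was sequenced from field-grown tassels, the male inflorescences of maize, collected at 2 to 4 mm in the B73 inbred background. The 3 wildtype libraries carried no labelled mutation. The 4 ndl1 libraries came from plants mutant in ndl1, also labelled zmftsh10, a gene for an ATP-dependent protease of the FtsH family that the series title places in mitochondria, and some of these tassels were severely affected and had formed only few axillary meristems. The 2 Bif1;Bif4 libraries came from plants heterozygous for both the Bif1 and the Bif4 mutation, in genes of Aux/IAA proteins, which repress auxin signalling. The labels do not say whether libraries came from separate plants or pools, so that p-values measure the spread between these libraries, which may be technical.

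In the shoot apex, stem cells are maintained by the homeobox factor WUSCHEL, known best from Arabidopsis, and secreted CLE peptides that signal through leucine-rich repeat receptors restrict it in a feedback loop. In maize, TD1 is the counterpart of the receptor kinase CLAVATA1 and FEA2 that of the receptor-like protein CLAVATA2, which has no kinase of its own, while FEA3 is a further receptor-like protein that responds to a CLE peptide from organ primordia. CT2, the alpha subunit of the heterotrimeric G protein, acts with FEA2, and FEA4 is a bZIP factor related to Arabidopsis PERIANTHIA. Loss of td1, fea2, fea3, ct2 or fea4 is known for enlarged or flattened inflorescence meristems in maize. From the fasciated ears and thick tassels td1 and the fea genes take their names.

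Reads counted to genes numbered 16863087 to 22533736 per library. Each library value is a normalized count, that is, the reads of a gene divided by the size factor of the library, and each mutant was deposited in a table of its own with the same 3 wildtype libraries. Of 13 markers of inflorescence and axillary meristems, all had reads in wildtype and ndl1, and bd1 alone was at 0 in Bif1;Bif4. Their summed level was 21145 to 23242 normalized counts in wildtype, 14781 to 21936 in ndl1 and 21154 to 23575 in Bif1;Bif4. Transcripts of the mutated genes did not check the genotypes, since in its own mutant each of NDL1, BIF1 and BIF4 had a log2 fold change between -0.52 and -0.05 that did not pass the test (limma adjusted p from 0.406 to 0.743). Log2 fold changes are given ± SE, mutant over wildtype, from limma with p adjusted by Benjamini-Hochberg over all genes tested, unless another tool is named, and a call is an adjusted p under 0.05. The comparisons ask which of the 7 genes differed between each mutant and wildtype, and between the mutants.

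Transcripts of td1 were lower in both mutants, at 34.8% of the wildtype mean in ndl1 and 37.5% in Bif1;Bif4. In bulk tassels fewer cells of a type and less RNA per cell cannot be told apart. In the ndl1 table, td1 stood at 756, 933 and 618 normalized counts in wildtype replicates 1 to 3 and at 196, 331, 350.1 and 192 in ndl1 replicates 1 to 4. All 4 ndl1 libraries lay below all 3 wildtype libraries, and replicates 1 and 4 were the lowest. Such a position was held by 10.6% of all genes tested. The difference was a log2 fold change of -1.56 ± 0.25 (95% interval -2.13 to -0.98, limma adjusted p = 0.0190 over 22416 genes). In the Bif1;Bif4 table, td1 stood at 753, 926 and 610.1 in wildtype and at 254 and 319 in Bif1;Bif4. Both Bif1;Bif4 libraries lay below wildtype, as did those of 21.2% of all genes tested, with a log2 fold change of -1.40 ± 0.19 (95% interval -1.85 to -0.95, limma adjusted p = 0.0181 over 22381 genes). Of all genes tested, 3.16% were called in ndl1 and 4.28% in Bif1;Bif4, 1.22% and 2.05% as lower. Of the 7 genes, td1 was the single one called in each of these comparisons. The quasi-likelihood test of edgeR called it as well (adjusted p = 0.0204 in ndl1 and 0.0206 in Bif1;Bif4), with 3.05% and 4.22% of all genes called. The authors' deposited table also called it lower in both, with DESeq2 log2 fold changes of -1.26 ± 0.21 and -1.17 ± 0.18 and adjusted p of 2.96e-07 and 9.36e-09, in tables that called 8.85% and 8.78% of genes. The ndl1 call was lost without ndl1 replicate 1 (-1.43, adjusted p = 0.0515), wildtype replicate 1 (-1.56, 0.0696) or wildtype replicate 2 (-1.41, 0.116), and the Bif1;Bif4 call without Bif1;Bif4 replicate 1 (-1.24, 0.131), Bif1;Bif4 replicate 2 (-1.56, 0.112) or wildtype replicate 2 (-1.25, 0.0792), all by limma.

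Some of the 13 meristem markers were also lower in the mutants. The mean log2 deviation of the 13 markers from the wildtype mean was -0.22, 0.15 and 0.07 in the wildtype libraries, -1.51, -0.58, -0.44 and -1.11 in ndl1 replicates 1 to 4, and -2.07 and -2.25 in Bif1;Bif4. The ndl1 replicates with the lowest td1, 1 and 4, were also those with the lowest marker mean. In Bif1;Bif4 the order was the other way. Replicate 2 had the lower marker mean and the higher td1, at 319 normalized counts against 254 in replicate 1. By the test, BA1 and baf1 fell among the 13 in ndl1 and the other 11 did not pass (median log2 fold change -0.63), while in Bif1;Bif4 5 fell, namely BA1, baf1, ra1, ra3 and kn1 (median -0.48). In each mutant 11 of the 13 values were negative and 2 positive. At an unadjusted p under 0.05 by limma stood 9 of the 13 in ndl1 and 11 in Bif1;Bif4. Of all genes tested, 4942 of 22416 in ndl1 and 5219 of 22381 in Bif1;Bif4 did so. The mean in the double heterozygotes was drawn down most by BA1, baf1, ra1 and ra3, which lay between -6.15 and -4.12. The summed marker level there was not below wildtype. Over all genes tested the median was -0.0011 in ndl1 and 0.0026 in Bif1;Bif4. Of 14 markers of vascular tissue and secondary walls 7 were tested, with 1 higher and 1 lower in ndl1 and none called in the double heterozygotes (4 at an unadjusted p under 0.05 by limma, none called by edgeR or DESeq2), and medians of 0.56 and 0.98. Their summed level was 1613 to 3417 normalized counts in wildtype, 1571 to 4761 in ndl1 and 2137 to 3338 in Bif1;Bif4, and 2 cesa11 identifiers, 2 of lac4 and 1 of LAC1 were at 0 in all 3 groups, with lac3 at 0 in wildtype and Bif1;Bif4. Of 9 anther and meiosis markers 6 were tested, with 2 higher and 1 lower in ndl1 and 1 higher in Bif1;Bif4. Their summed level was 2672 to 2749 in wildtype, 3645 to 4180 in ndl1 and 2804 to 2959 in Bif1;Bif4, with ms8 at 0 in wildtype and Bif1;Bif4 and ms23 at 0 in Bif1;Bif4. Of 18 leaf photosynthesis markers at most 9 were tested, with 1 higher in each mutant, and their summed level was 1228 to 1462 in wildtype, 1290.3 to 2078 in ndl1 and 1502 to 1748 in Bif1;Bif4. In that list cab48 was at 0 in wildtype and Bif1;Bif4, PSBQ and psbs1 in ndl1 and Bif1;Bif4, and psad1 and an rbcS identifier in ndl1. The part of these cell types in the lower td1 was not tested.

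**Figure D1:**
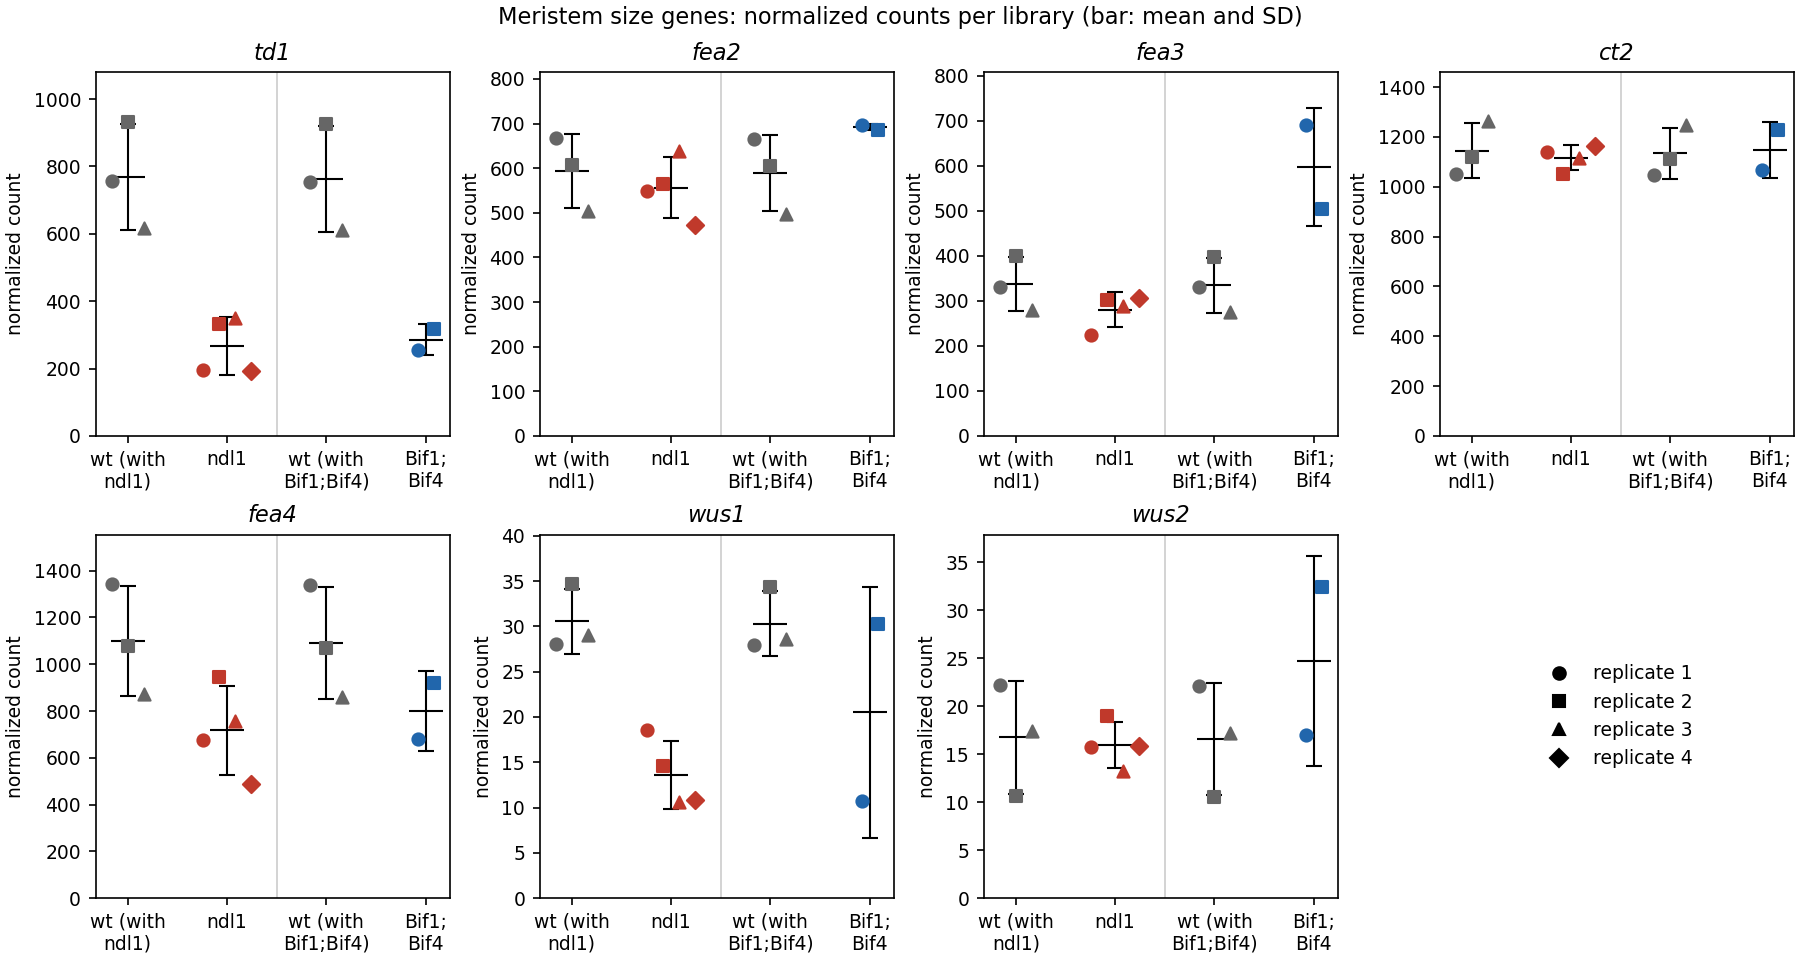
Normalized counts of the 7 genes (vertical axes, from 0) in each library of the ndl1 table (left of the line) and the Bif1;Bif4 table (right), with wt for wildtype, symbols for replicates and bars for mean and SD. For td1 every mutant library lies under the lowest wildtype library, for fea3 both Bif1;Bif4 libraries lie above wildtype, and ct2 overlaps throughout.

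The receptor-like protein gene fea2 did not pass the test in either mutant. In the ndl1 table it stood at 668, 608 and 505 normalized counts in wildtype and at 548, 565, 639 and 472 in ndl1, and the groups overlapped. Its log2 fold change was -0.09 ± 0.13 (95% interval -0.39 to 0.21, limma adjusted p = 0.720). In the Bif1;Bif4 table fea2 stood at 665, 604 and 498 in wildtype and at 696 and 687 in Bif1;Bif4. Both mutant libraries lay above wildtype, at 0.24 ± 0.13 (95% interval -0.07 to 0.55, limma adjusted p = 0.315). A lack of overlap was common in that table, where 42.1% of all genes tested had none, 20.9% with Bif1;Bif4 higher.

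The second receptor-like protein gene, fea3, separated the mutants from each other. In the Bif1;Bif4 table it stood at 330.1, 397 and 276 normalized counts in wildtype and at 690.2 and 505 in Bif1;Bif4. Both mutant libraries thus lay above all wildtype libraries, as for 20.9% of all genes tested. The mean was 597 ± 131 (SD, n = 2) against 334 ± 60.7 (SD, n = 3), a log2 fold change of 0.83 ± 0.19 (95% interval 0.38 to 1.29). Limma did not call it (Benjamini-Hochberg adjusted p = 0.0627), nor did edgeR's quasi-likelihood test on the recovered reads (Benjamini-Hochberg adjusted p = 0.0596). DESeq2 on the same reads did (adjusted p = 0.00350, with 9.41% of all genes called), and the authors' deposited table called it too (log2 fold change 0.69 ± 0.18, adjusted p = 0.00374). In the ndl1 table fea3 stood at 331, 399.9 and 279.6 in wildtype and at 224, 302, 289 and 306 in ndl1. These groups overlapped, with a log2 fold change of -0.26 ± 0.16 (95% interval -0.62 to 0.10, limma adjusted p = 0.368).

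The direct comparison of the mutants, with all 9 libraries scaled together, called fea3 and no other of the 7 genes, where 3.47% of 23203 genes tested were called, 1.68% as lower in ndl1. On that scale fea3 stood at 225, 304, 290.3 and 308 in ndl1 and at 702 and 513 in Bif1;Bif4, without overlap. The mean in ndl1 was 46.4% of that in Bif1;Bif4, a log2 fold change of -1.10 ± 0.19 (95% interval -1.53 to -0.67, limma adjusted p = 0.0151). By edgeR's quasi-likelihood test the adjusted p was 0.0129 and by DESeq2 1.09e-05, where these tools called 3.31% and 7.02% of all genes. The call was lost without Bif1;Bif4 replicate 1 (-0.87, adjusted p = 0.178) or replicate 2 (-1.33, adjusted p = 0.0581), both by limma. For td1 the direct comparison gave -0.16 ± 0.28 (95% interval -0.78 to 0.46, limma adjusted p = 0.802), an interval that leaves room for a difference in either direction. For fea2 it gave -0.34 ± 0.14 (95% interval -0.65 to -0.03), with all ndl1 libraries below both Bif1;Bif4 libraries, and did not pass (limma adjusted p = 0.237). Of all genes tested, 14.5% lay without overlap lower in ndl1 than in the double heterozygotes.

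**Figure D2:**
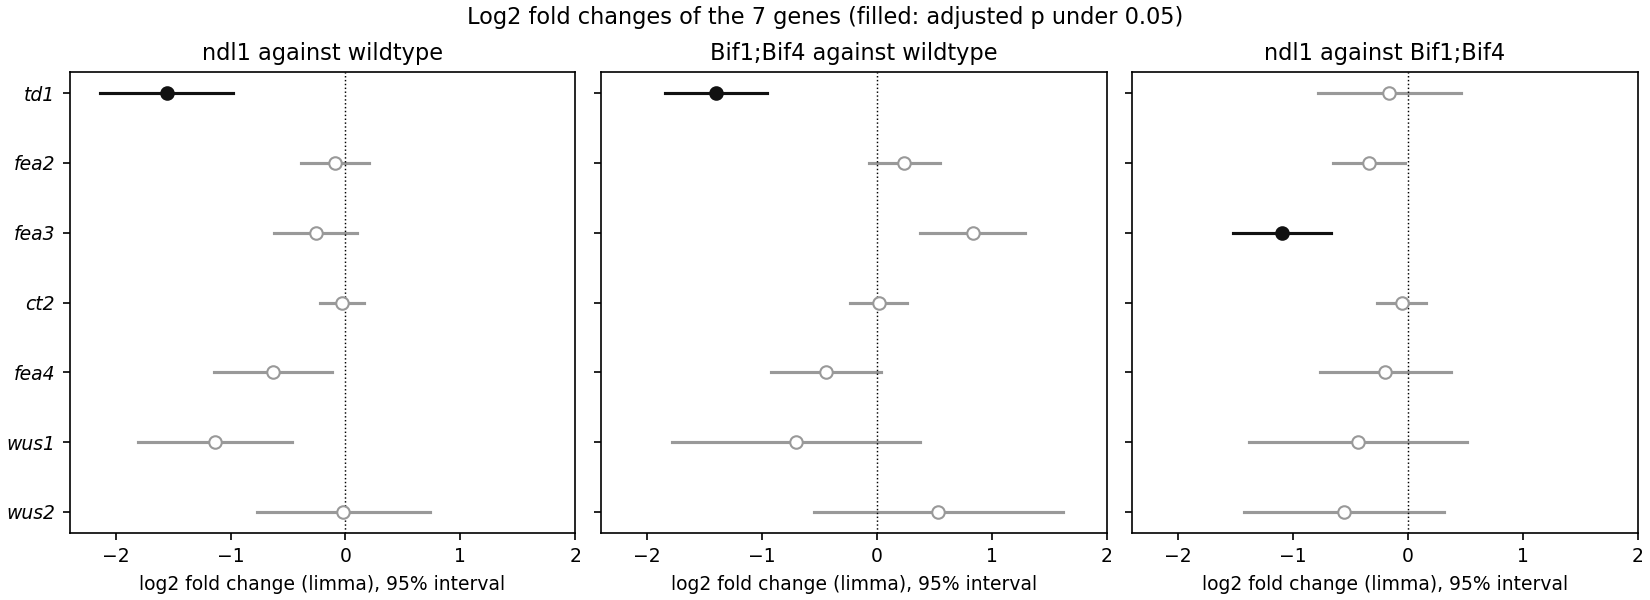
Log2 fold changes of the 7 genes (horizontal axis, limma) with 95% intervals in the 3 comparisons, filled where the adjusted p passed. Filled points are td1 against wildtype in both mutants, at -1.56 and -1.40, and fea3 between the mutants, at -1.10.

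The G protein alpha subunit gene ct2 had the narrowest intervals of the 7 genes. It stood at 1050.3, 1119 and 1264 normalized counts in wildtype and at 1139.7, 1049, 1116 and 1163 in ndl1. In the Bif1;Bif4 table it stood at 1046, 1111 and 1248 in wildtype and at 1069 and 1228 in Bif1;Bif4. The groups overlapped in both tables. Its log2 fold change in ndl1 was -0.03 ± 0.08 (95% interval -0.22 to 0.16, limma adjusted p = 0.856). In Bif1;Bif4 it was 0.02 ± 0.10 (95% interval -0.23 to 0.27, limma adjusted p = 0.942), and between the mutants -0.05 ± 0.10 (95% interval -0.27 to 0.16, limma adjusted p = 0.807).

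The bZIP gene fea4 did not pass in either mutant, although its means were below wildtype in both. In the ndl1 table it stood at 1343, 1076 and 874 normalized counts in wildtype and at 678, 947, 756 and 487 in ndl1. The groups overlapped through ndl1 replicate 2 and wildtype replicate 3. The log2 fold change was -0.63 ± 0.22 (95% interval -1.14 to -0.12), with a limma adjusted p of 0.154. In the Bif1;Bif4 table it stood at 1338, 1069 and 862 in wildtype and at 679.5 and 919.6 in Bif1;Bif4, overlapping again. Its log2 fold change was -0.44 ± 0.20 (95% interval -0.92 to 0.04, limma adjusted p = 0.250), and it was -0.22 without Bif1;Bif4 replicate 1, -0.66 without replicate 2 and -0.28 without wildtype replicate 1. The authors' deposited table held adjusted p of 0.0644 and 0.213 for these comparisons.

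The WUSCHEL genes wus1 and wus2 had few reads, 11 to 36 per library for wus1 and 11 to 31 for wus2, which limits what can be told of them. For wus1 the reads were 29, 36 and 25 in wildtype replicates 1 to 3, 20, 13, 12 and 11 in ndl1 replicates 1 to 4, and 12 and 29 in Bif1;Bif4 replicates 1 and 2. An exact Poisson interval (95%), which covers counting error only, reached from 25.2 to 49.8 for 36 reads and from 5.49 to 19.7 for 11. In normalized counts wus1 stood at 28.0, 34.7 and 29.0 in wildtype and at 18.6, 14.5, 10.6 and 10.9 in ndl1. All ndl1 libraries lay below wildtype, as for 10.6% of all genes tested, and the log2 fold change was -1.14 ± 0.29 (95% interval -1.80 to -0.47). It did not pass limma (Benjamini-Hochberg adjusted p = 0.0758), edgeR (0.0714) or DESeq2 (0.0651), and the authors' deposited table held an adjusted p of 0.0659. The double heterozygote libraries went apart, at 10.7 and 30.3 against 27.9, 34.4 and 28.6 in wildtype, the first at the level of ndl1 and the other within wildtype. The log2 fold change of -0.70 ± 0.45 had an interval (95%) of -1.78 to 0.37 (limma adjusted p = 0.400), and without Bif1;Bif4 replicate 1 it was 0.0060.

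For wus2 the ndl1 libraries lay within the wildtype range, at 15.8, 19.0, 13.2 and 15.8 normalized counts against 22.2, 10.6 and 17.4. The log2 fold change was -0.02 ± 0.33 (95% interval -0.77 to 0.73, limma adjusted p = 0.981). In Bif1;Bif4 wus2 stood at 17.0 and 32.4 against 22.1, 10.5 and 17.2 in wildtype. Replicate 2 was the higher double heterozygote library for both WUSCHEL genes, and the groups overlapped for both. The log2 fold change of wus2 was 0.54 ± 0.46 (95% interval -0.55 to 1.62, limma adjusted p = 0.526), and without Bif1;Bif4 replicate 1 or 2 it was 0.98 or 0.09, without wildtype replicate 2 0.26. Between the mutants neither gene passed, with -0.44 ± 0.42 for wus1 and -0.56 ± 0.39 for wus2 (limma adjusted p = 0.630 and 0.485), and without Bif1;Bif4 replicate 1 or 2 the wus2 value was -1.004 or -0.11. The pair are related genes, and the sources used here do not give how reads that fit several genes were counted. Reads may therefore have gone to the wrong gene of the pair or been left out.

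As a set, the 7 genes had negative log2 fold changes in ndl1 throughout, from -1.56 to -0.02 with a median of -0.26, and 1 of 7 passed. In Bif1;Bif4 4 were positive and 3 negative, from -1.40 to 0.83 with a median of 0.02, and 1 of 7 passed. Between the mutants all 7 were negative, lower in ndl1, with a median of -0.34, and 1 of 7 passed. Several of these signs turned when 1 library was left out. They were those of ct2 and wus2 in ndl1, ct2 and wus1 in Bif1;Bif4, and td1, ct2, fea4 and wus1 between the mutants. Positive values were 49.8% of all genes tested in ndl1, 50.4% in Bif1;Bif4 and 50.3% between the mutants. Limma called 3.16%, 4.28% and 3.47% of all genes tested in these comparisons, in the same order. Both comparisons share the wildtype libraries.

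Ratios between genes of 1 library depend little on how libraries were scaled, and 3 were taken in 2 comparisons. Since transcript lengths differ, the difference between groups can be read and the ratio itself cannot. The log2 ratio of td1 to fea2, the pair of receptors with CLAVATA counterparts, was 0.18, 0.62 and 0.29 in wildtype. In ndl1 it was -1.48, -0.77, -0.87 and -1.30. The ndl1 mean was 1.47 lower on the log2 scale (-1.47), without overlap, at the smallest p that an exact permutation test of 3 against 4 libraries can give (two-sided p = 0.0571, 0.171 after Benjamini-Hochberg adjustment over the 6 tests). In Bif1;Bif4 it was -1.45 and -1.10, a difference of -1.64, again without overlap and at the smallest possible p of 0.200 (exact permutation test, two-sided, adjusted p = 0.300). All 6 mutant libraries had a lower ratio than any wildtype library, while each of the 2 comparisons with wildtype had too few libraries to reach 0.05. The ratio is made from the td1 values given above, and fea2 had log2 fold changes of -0.09 in ndl1 and 0.24 in Bif1;Bif4. It is therefore no separate evidence of the lower td1, and both comparisons use the same 3 wildtype libraries. How many other gene pairs separate in this way was not computed.

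The ratio of wus1 to td1, a stem cell factor against the receptor that restrains it, overlapped between groups. It was -4.70, -4.71 and -4.37 in wildtype and -3.33, -4.42, -4.92 and -4.02 in ndl1, with a difference of 0.42 (exact permutation test, two-sided p = 0.400, adjusted p = 0.400), or 0.14 without ndl1 replicate 1 and 0.67 without replicate 3. In Bif1;Bif4 it was -4.44 and -3.35, with a difference of 0.70 (exact permutation test, two-sided p = 0.400, adjusted p = 0.400), or 1.24 without replicate 1 and 0.15 without replicate 2. The ratio of wus1 to wus2 was 0.32, 1.62 and 0.71 in wildtype and 0.22, -0.37, -0.30 and -0.50 in ndl1. It was lower in every ndl1 library, with a difference of -1.12 (exact permutation test, two-sided p = 0.0571, adjusted p = 0.171). In Bif1;Bif4 it was -0.62 and -0.09, with a difference of -1.24 and no overlap (exact permutation test, two-sided p = 0.200, adjusted p = 0.300). With 11 to 36 reads behind each wus1 and wus2 value, counting error enters this ratio.

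**Figure D3:**
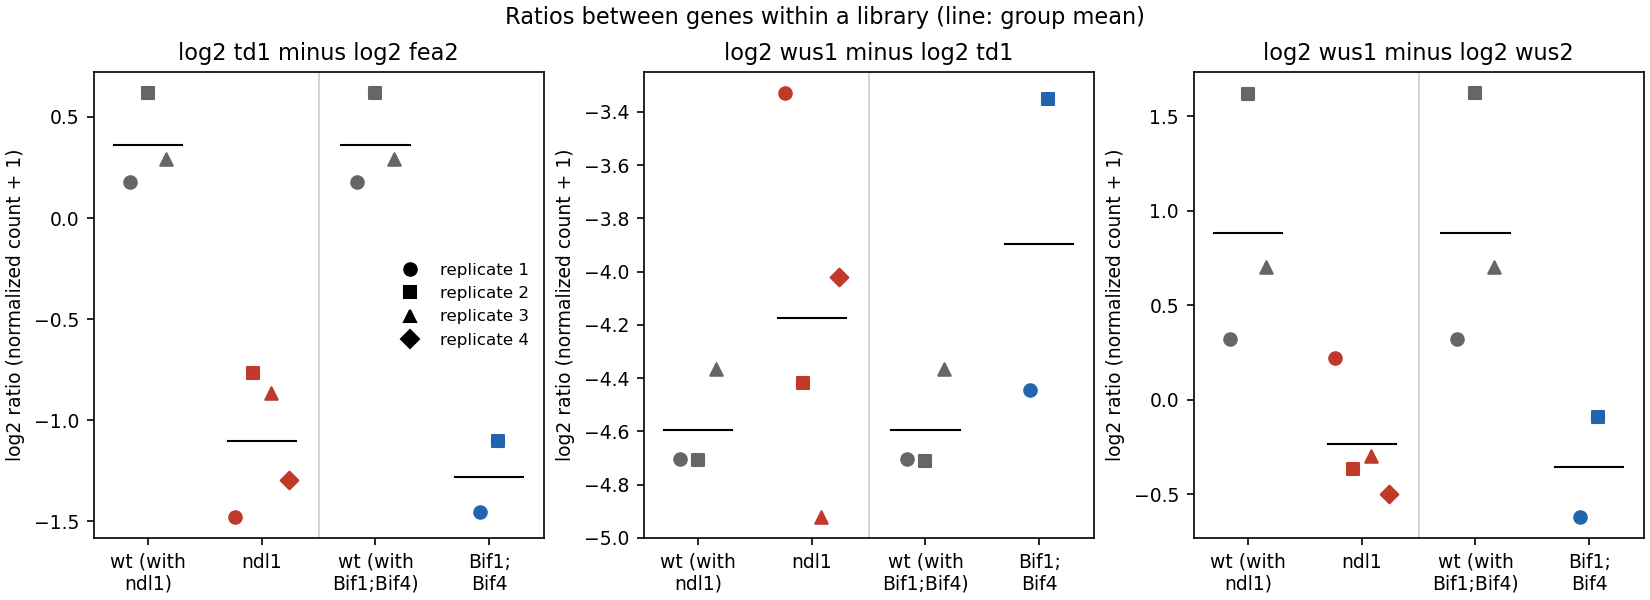
Log2 ratios (vertical axes, normalized count + 1) of td1 to fea2, wus1 to td1 and wus1 to wus2 in each library, with wt for wildtype, symbols for replicates and lines for group means. The td1 to fea2 ratio lies below wildtype in all 6 mutant libraries, and the wus1 to td1 ratio overlaps.

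Other genes around the pathway were taken by RefSeq name in 8 lists, 65 genes in all, of which 51 were tested in ndl1 and 52 in Bif1;Bif4. In ndl1 4 fell and none rose, and in Bif1;Bif4 3 fell and none rose. Of all genes tested, 1.22% and 2.05% were called lower, and 3.16% and 4.28% in either direction. The 4 genes that the CLE peptide list matched, esr1, esr6 and the identifiers named ESR1 and ESR3, had 0 reads in all libraries. They were matched by name alone, and whether they encode ligands of this pathway was not tested. CLE ligand genes known for the pathway were not analysed here, because the name table used does not name them. Receptor-associated kinase genes serk1, serk2 and serk3 did not pass, with log2 fold changes from -0.02 to 0.06 in ndl1 and from -0.30 to 0.14 in the double heterozygotes (0 and 1 at an unadjusted p under 0.05 by limma, none called by edgeR or DESeq2). The G protein beta subunit gene GB1 (GRMZM2G045314), whose product pairs with the alpha subunit, was at 0.04 ± 0.06 and 0.18 ± 0.07 (limma adjusted p = 0.762 and 0.190) and, like ct2, did not pass, while another identifier named GB1 had 5 reads over the 9 libraries. The TOPLESS-type co-repressor genes rel2, RELK2 and RELK3 did not pass either, with values from -0.19 to 0.07 in ndl1 and from -0.07 to 0.18 in the double heterozygotes (0 at an unadjusted p under 0.05 in both by limma, none called by edgeR or DESeq2).

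The WOX genes are the homeobox family of WUSCHEL. Of 5 tested beside wus1 and wus2 in ndl1, 1 fell (median log2 fold change -0.35), and of 6 in Bif1;Bif4, 2 fell (median -1.59). The gene wox3A fell from a wildtype level of 260.4 ± 29.1 normalized counts (SD, n = 3) to 112 ± 36.8 in ndl1 (SD, n = 4), by -1.26 ± 0.24 on the log2 scale (limma adjusted p = 0.0330). In Bif1;Bif4 it fell to 86.7 ± 42.9 (SD, n = 2), with -1.65 ± 0.30 (limma adjusted p = 0.0362). The gene wox9C fell in Bif1;Bif4, to 92.5 ± 17.0 from 202 ± 29.8, with -1.12 ± 0.20 (limma adjusted p = 0.0334), and did not pass in ndl1 (-0.93 ± 0.29, limma adjusted p = 0.114). Narrow sheath1 (ns1), which recruits founder cells at leaf margins, stood at 8.05 ± 2.47 against 26.7 ± 4.95 in Bif1;Bif4 and did not pass (limma adjusted p = 0.0635).

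Of 10 KNOX homeobox genes, which keep meristem cells undetermined, none passed limma in ndl1 (7 at an unadjusted p under 0.05, none by edgeR, median -0.28). DESeq2 called 1 of them, knox3, (adjusted p = 0.0104), which stood at 261 ± 76.6 against 497 ± 120.2 normalized counts. In Bif1;Bif4 1 fell (median -0.45), the founding member kn1, from 7894 ± 555 to 5889.6 ± 133, a log2 fold change of -0.42 ± 0.09 (limma adjusted p = 0.0479), which edgeR did not call (adjusted p = 0.0504) and DESeq2 did, with 4 others. Of 4 glutaredoxin and bZIP genes beside fea4, the ocs-element binding factor genes obf3.2 and OBF3.1 fell in ndl1. Their log2 fold changes were -0.49 ± 0.09 and -0.60 ± 0.13 (limma adjusted p = 0.0307 and 0.0440, list median -0.23), and as related copies they may share reads. None of the 4 passed limma in the double heterozygotes (3 at an unadjusted p under 0.05, list median 0.19). There OBF1 was at 0.65 ± 0.14 (limma adjusted p = 0.0502) and edgeR called it (adjusted p = 0.0492), while DESeq2 called OBF1 and grx1. Over all genes tested, calls in either direction were 9.86% and 9.41% by DESeq2 and 3.05% and 4.22% by edgeR in ndl1 and Bif1;Bif4. Limma called 1.22% and 2.05% as lower.

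Cytokinin promotes WUSCHEL expression in Arabidopsis, and 25 genes of its response and turnover were tested. In ndl1 1 fell and none rose, with 22 of 25 log2 fold changes negative and a median of -0.23. The gene that fell was CKX10, for a cytokinin oxidase, an enzyme that degrades the hormone, with 969 ± 183 normalized counts in wildtype and 445 ± 121 in the mutant (SD, n = 3 and 4). Its log2 fold change was -1.15 ± 0.22 (limma adjusted p = 0.0310). In the double heterozygotes none passed limma (6 at an unadjusted p under 0.05, none by edgeR), with 15 of 25 negative and a median of -0.03. The histidine kinase gene HK1, for a cytokinin receptor, was at -0.32 ± 0.08 in ndl1 and -0.30 ± 0.07 in Bif1;Bif4 (limma adjusted p = 0.0699 and 0.0663). DESeq2 called HK1 in both (adjusted p = 0.00875 and 0.00752), where it called 9.86% and 9.41% of all genes. DESeq2 also called RR4, a response regulator, in ndl1 (-0.50 ± 0.12, limma adjusted p = 0.0591) and RR9 and CKX10 in Bif1;Bif4. CKX5, another cytokinin oxidase gene, was at -2.55 ± 0.56 in the double heterozygotes (limma adjusted p = 0.0558), where its mean was 13.9 normalized counts in wildtype. The meristem marker means given above were lower in both mutants, where WOX and KNOX medians were negative in both and cytokinin, TOPLESS and glutaredoxin medians lay between -0.23 and 0.19. The gene kn1 stands in both the marker and the KNOX list, and the part of those cells was not tested.

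**Figure D4:**
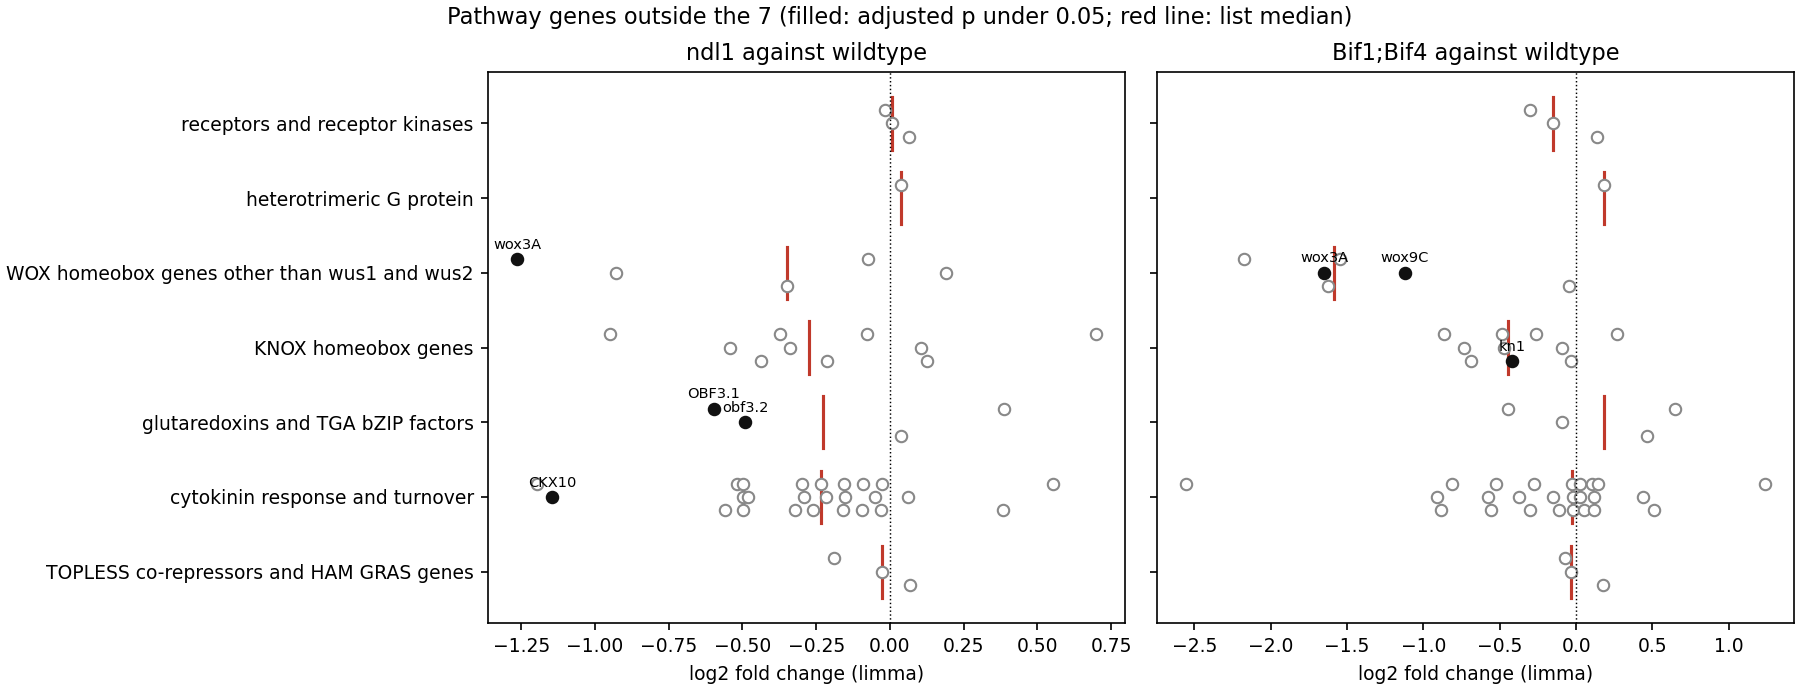
Log2 fold changes (horizontal axes, limma) of the tested genes of the pathway lists outside the 7, in ndl1 (left) and Bif1;Bif4 (right), on separate scales, filled and named where the adjusted p passed, with red lines at list medians. WOX genes have the lowest medians, -0.35 and -1.59, and the CLE list is absent because the 4 genes found by name had 0 reads.

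Across the 9 libraries, the log2 levels of td1 went with those of fea4 (Pearson r = 0.83) and wus1 (r = 0.72), and fea4 with wus1 (r = 0.72). These values describe 9 points that fall into 3 genotypes and hold the differences between groups. The other receptors did not follow td1, with r = 0.22 for fea2 and 0.04 for fea3, while fea2 and fea3 had r = 0.69. Likeness was sought only among 148 of the 23203 tested genes, those with a descriptive RefSeq symbol and not a locus or clone name. Among these, the ones most like td1 were MIR2118c, a microRNA precursor (r = 0.89), and sfp4 (r = 0.85). For wus1 they were sfp4 (r = 0.82) and MIR164d (r = 0.81), and for fea4 CNR13 (r = 0.86) and the SBP-box gene sbp21 (r = 0.85). For fea2 they were AKHSDH1, an aspartate kinase and homoserine dehydrogenase gene (r = 0.95), and the SBP-box gene ub2 (r = 0.84). For fea3 they were OBF1 and mbd117 (r = 0.81 each), for ct2 sbp16 (r = 0.68) and COAC1 (r = 0.67), and for wus2 ub3 (r = 0.67) and opr6 (r = 0.62).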

How the data were processed

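Per the submitters' processing notes, reads were handled with Trimmomatic, TopHat2 2.1.1, HTSeq and DESeq2. The genome build is not given in the sources used here, nor is the annotation or whether counting used strand. Counts of antisense, overlapping or near-identical genes are therefore uncertain. The authors deposited 1 table per mutant. Each library column holds signal values, which by the values themselves and the deposited headers are reads divided by a size factor (normalized counts), and the mean column is their average. The log2 fold changes with standard errors, the test statistic (a score), the p-values and the adjusted p-values are the authors' DESeq2 results, per the file headers.

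Dividing by the step that 1 read is worth gave whole numbers, within 0.1 reads, for 100% of values in every library. Wildtype reads were identical in both tables (0 of 39305 genes differed). Libraries of a group differed beyond counting noise (chi-square per degree of freedom 9.80 to 40.1). Genes were kept by edgeR's filterByExpr at a minimum count of 10. All kept genes of a table were then fitted on log2(normalized count + 1) by limma 3.58.1 with its mean-variance trend (R 4.3.3), and p-values were adjusted by Benjamini-Hochberg, with calls at 0.05. The added 1 shrinks the fold changes of low genes. Mutants were compared in 1 fit of 9 libraries after median-of-ratios scaling. Alternatives were edgeR 4.0.16 and DESeq2 1.42.0 on the recovered reads, TMM scaling, other pseudocounts, no filter, a replicate block and leaving out libraries.

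Names came from RefSeq (Zm-B73-REFERENCE-NAM-5.0), with 18476 identifiers matched to 1 gene. On the lists, 9 genes whose matched name belongs to another family were taken off by name alone. The 7 genes, the lists and the tests were chosen with earlier results of these data known. Named genes were the 7, list members that passed, up to 3 further ones per list with the lowest p, and the 2 genes most correlated with each of the 7. A few more list members were named after their values were seen.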

Additional observations from a re-analysis of the deposited data

How the results depend on the processing

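Under the 294 alternative fits of the 7 genes (7 genes in 3 comparisons), 271 kept direction and side of the threshold, 10 lost a call, 1 gained one and 12, all of values that were not called, changed sign. The call of td1 in ndl1 was lost with the replicate number as a block (-1.42, limma adjusted p = 0.0543), as was fea3 between the mutants (-1.11, adjusted p = 0.0862), so that 0 of 7 genes were called in each of these, and fea4 between the mutants turned to 0.066. Numbers shared by libraries do not show a pairing, since deviations of same-numbered ndl1 and wildtype libraries correlated at -0.11, 0.22 and -0.01, and those of Bif1;Bif4 at -0.22 and -0.17. DESeq2 called 2 of 7 in Bif1;Bif4, adding fea3 (0.84). Over all genes, 708, 957 and 806 calls (ndl1, Bif1;Bif4 and between mutants) became 2210, 2105 and 1628 by DESeq2 and 365, 431 and 336 with the block. Leaving out 1 library gave 111 to 1467, 1 to 1299 and 152 to 897 calls, and 0 to 1 of the 7 genes in each comparison. The cause was not tested, and fewer libraries enter these fits. A lone Bif1;Bif4 library is assumed to vary like wildtype. Then td1 ranged from -1.71 to -1.41 in ndl1 and from -1.56 to -1.24 in Bif1;Bif4, and fea3 between mutants from -1.33 to -0.87. Values whose sign turned were ct2 (-0.091 to 0.042) and wus2 (-0.30 to 0.20) in ndl1, ct2 (-0.083 to 0.12) and wus1 (-1.41 to 0.0060) in Bif1;Bif4, and td1 (-0.33 to 0.0014), ct2 (-0.15 to 0.045), fea4 (-0.42 to 0.020) and wus1 (-1.15 to 0.27) between mutants. TMM scaling, pseudocounts of 0.5 and 5, and no filter changed no call of the 7. The 3 ratios kept their sign, but wus1 to td1 ranged from 0.14 to 0.67 in ndl1 and from 0.15 to 1.24 in Bif1;Bif4 when 1 library was left out.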

Other observations

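Between the mutants, 2 of the 53 tested genes of the 8 lists passed as higher in ndl1 and none as lower. Of all genes tested, 3.47% were called in either direction, and 416 of 23203 as higher. Of 7 WOX genes tested, ns1 passed as higher in ndl1, at 26.2 ± 7.32 normalized counts (SD, n = 4) against 8.18 ± 2.56 in Bif1;Bif4 (SD, n = 2), or 1.55 ± 0.35 on the log2 scale (SE, limma adjusted p = 0.0462), which edgeR did not call (adjusted p = 0.0609). All 7 were positive, with a median of 1.02. Of 10 KNOX genes, knox8 passed as higher in ndl1, at 139 ± 28.2 against 50.5 ± 8.27, with 1.43 ± 0.29 (SE, limma adjusted p = 0.0306). Of the meristem markers 4 of 13 were also called higher in ndl1 (BA1, baf1, ra1 and ra3), and of the anther and meiosis markers 3 of 6 (Rad51A2, afd1 and Dmc1). The part of those cells in the values of ns1 and knox8 was not tested. Of the 14 nearest tested genes on either side of the 7 in RefSeq order, none of which overlaps its neighbour there, 2 fell in Bif1;Bif4, where 2.05% of all genes tested did. GRMZM2G399073 beside td1 was at -0.66 ± 0.11 (SE, limma adjusted p = 0.0311). GRMZM2G157113 beside fea4 was at -0.71 ± 0.14 (SE, limma adjusted p = 0.0449). The others did not pass in either mutant.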
